A study of Mus musculus with 30 samples.

Results

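The comparison described here asks whether tumours of antibiotic-treated mice changed differently from tumours of water mice between 0 and 18 h after oxaliplatin. For each gene the value is a difference of differences on the log2 scale: the change from 0 to 18 h in antibiotic mice minus the same change in water mice, called the interaction below. It was computed from 20 of the 30 samples of the series, 5 per group, for 19938 genes with 1 row of the deposited table per gene symbol. The spread behind its SE and p-value came from all 30 samples. A positive value means that the gene ended relatively higher, and a negative value relatively lower, in antibiotic mice. In limma 21 genes (0.105% of those tested) passed at an adjusted p under 0.05, of which 9 were positive (0.0451%) and 12 negative (0.0602%). With the median of each array subtracted, 12 passed, 7 positive and 5 negative.

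Oxaliplatin is a platinum compound that forms adducts and crosslinks in DNA. Damaged DNA activates checkpoint kinases, which hold the cell cycle, and p53, which switches on genes for arrest, repair and death. A cell under stress can also call on heat shock chaperones, which refold proteins, and on sestrins, which slow growth signalling, while dividing cells need sterols and fatty acids for new membrane. In transplanted tumours the gut microbiota has been linked to how strongly myeloid cells respond to platinum drugs, which is the setting in which antibiotics are given before chemotherapy.

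The tumours were grown in wild-type mice from EL4, a lymphoma line of mouse T cells. In the antibiotic groups the mice had received a cocktail of antibiotics for 3 weeks; the other mice are labelled H2O, and the protocol calls them untreated. All mice were injected under the flank skin with 500000 EL4 cells and were given oxaliplatin at 10 mg per kg into the abdomen 7 days later. The 0 h tumours are taken here as the state before the drug acted, although the same dose is listed for them. The 4 groups used here are water 0 h, water 18 h, antibiotic 0 h and antibiotic 18 h. A further 10 tumours from 6 h enter the spread of the fit and are described beside them. No tumour without oxaliplatin was sampled at a later time, so an effect of the drug and other change with time cannot be told apart. The labels do not say that each sample came from its own mouse, so the spread behind the p-values is that of these samples and may be technical.

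Each sample was measured on 1 Affymetrix mouse gene array, in the authors' deposited log2 values. Array medians lay between 7.253 and 7.365, and no group stood apart by this measure. Over the 30 arrays the means of the 14 T cell markers tested ran from 6.43 for Cd6 and 7.37 for Lef1 to 12.08 for Lat. Cd3e had 11.29, Cd3g 11.89 and Thy1 11.93. A whole tumour was extracted, so fewer cells of a type and less RNA per cell cannot be told apart. The median SE of an interaction was 0.101.

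In most of the 21 genes the change with time was larger in water than in antibiotic tumours. The median size of the change from 0 to 18 h was 0.39 in water mice and 0.08 in antibiotic mice. The change in water mice passed its own test in 20 of the 21 genes (background 14.1% of all genes), and the change in antibiotic mice in 1 (1.22%), Dennd6b. The change was larger in water mice in 19 of the 21 (63.9% of all genes), with Vmn1r28 and Dennd6b as the exceptions. Since the genes were chosen by the difference of these very changes, the counts describe them and test nothing.

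**Figure D1:**
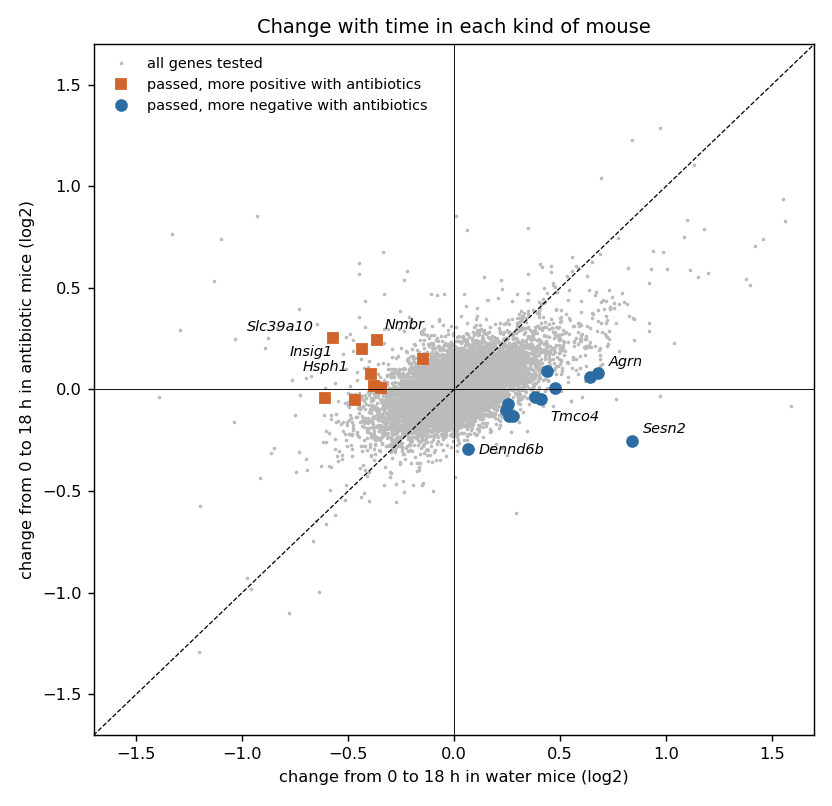
Change from 0 to 18 h in water mice (horizontal, log2) and in antibiotic mice (vertical, log2) for all 19938 genes (grey) and for the 21 that passed the interaction, with a dashed line where both changes are equal. Except for Vmn1r28 and Dennd6b, the coloured points lie farther from 0 along the horizontal than along the vertical axis.

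At 18 h the antibiotic and water tumours differed at an adjusted p under 0.05 in 20 of the 21 genes (limma, background 7.85%), and at 0 h in 0 of 21 (0.0903% of all genes). The values of the 5 antibiotic and 5 water arrays did not overlap at 18 h in 18 of the 21 genes (7.20% of all genes), nor at 0 h in 6 (1.65%). The gap between antibiotic and water tumours had opposite signs at 0 and 18 h in 20 of the 21 (42.7% of all genes), Agrn being the exception. The median size of the gap was 0.11 at 0 h and 0.34 at 18 h. These values describe genes chosen by the difference of the same gaps.

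The tumours from 6 h enter no interaction value at 18 h, but they enter the spread behind its SE and adjusted p. With the 20 arrays of 0 and 18 h alone in the fit 12 genes passed, 11 of them among the 21. At 6 h the gap passed in 0 of the 21 genes (limma, background 3.77%), and it lay between -0.23 for Slc39a10 and 0.15 for R3hcc1. It had the same sign as at 18 h in 9 of 21. Only Mrnip had non-overlapping groups at 6 h (4.95% of all genes), and there antibiotic tumours were the higher, opposite to 18 h. An interaction computed in the same way from 0 to 6 h passed in 0 genes in limma, with 1964 genes (9.85%) at an unadjusted p under 0.05, and in 0 with an ordinary linear model.

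**Figure D2:**
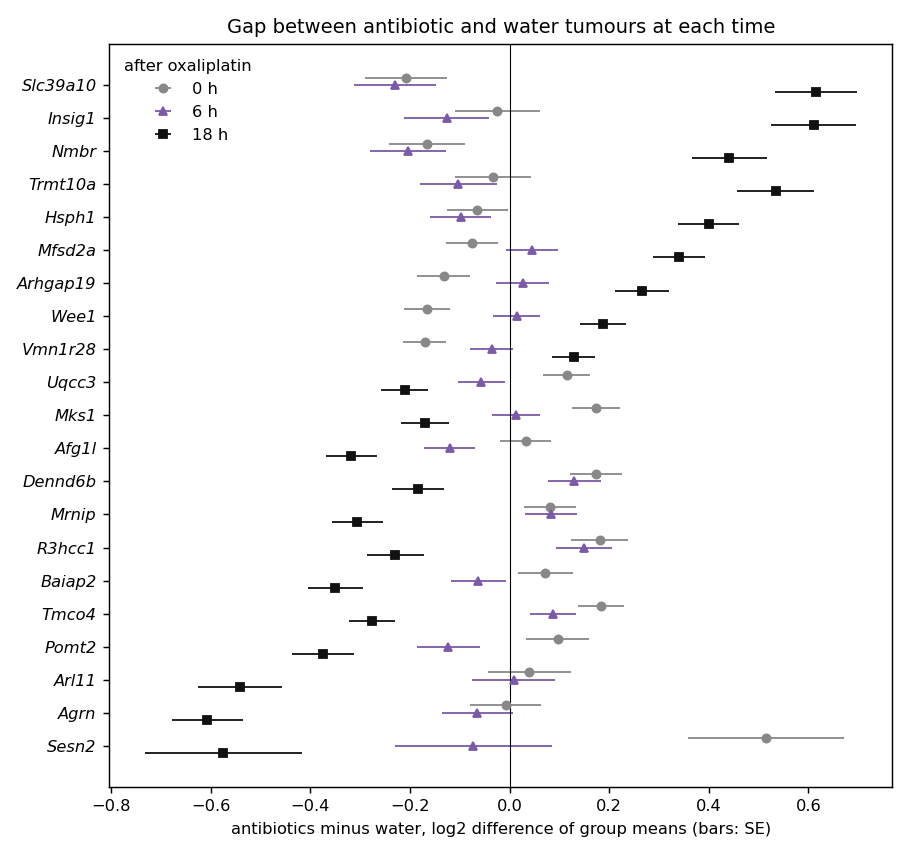
Antibiotic minus water tumours (log2 difference of group means, bars show the SE) at 0 h, 6 h and 18 h for the 21 genes that passed. The black squares of 18 h lie to the right of 0 for the 9 positive genes and to the left for the 12 negative ones, whereas the 6 h points stay between -0.23 and 0.15.

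Single arrays moved the number of genes that passed. It was 119 when antibiotic 18 h array 5 was left out and 72 when water 18 h array 5 was. It was 2 when either water 0 h array 4 or antibiotic 18 h array 1 was left out, and 3 for water 18 h array 3 or antibiotic 18 h array 4. Leaving out water 0 h array 1 gave 6 and its array 2 gave 11. Leaving out array 2, 4 or 5 of antibiotic 0 h gave 9, 13 and 11. Slc39a10 and Tmco4 passed in every one of the 30 fits run, and the sign of the other 19 held in all of theirs.

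Slc39a10, which encodes a zinc importer of the plasma membrane, had the largest positive interaction. In water tumours its log2 expression was 10.47, 10.44, 10.51, 10.55 and 10.38 at 0 h and 10.13, 9.72, 9.80, 9.82 and 10.03 at 18 h. In antibiotic tumours it was 10.12, 10.30, 10.35, 10.22 and 10.34 at 0 h and 10.66, 10.51, 10.36, 10.69 and 10.36 at 18 h. All water arrays thus lay above all antibiotic arrays at 0 h and below all of them at 18 h. The gene fell by 0.57 ± 0.082 in water mice (limma, adjusted p = 2.23e-05), and the change in antibiotic mice was 0.25 ± 0.082 (adjusted p = 0.148). The interaction was 0.82 ± 0.12 (adjusted p = 0.00143), a 1.77-fold difference in the change.

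Cells balance zinc through importers of the Slc39a family, exporters of the Slc30a family and metallothioneins, which bind the metal and rise when it is plentiful. Of 25 such genes tested, Slc39a10 was the 1 that passed (0.105% of all genes). A value above 0 was found in 15 (50.5% of all genes) and the median interaction was 0.04, against 0.0015 over all genes. This list and those below were chosen with earlier results of these data known, and members of a list can shift together on an array. Counts of list members therefore describe the lists and test nothing. At the other end was Slc30a1, the main exporter of the plasma membrane and a gene induced by zinc, with -0.51 ± 0.11 (limma, adjusted p = 0.0647). Slc30a1 was 8.08, 7.80, 7.73, 7.77 and 7.81 in water tumours at 0 h and 7.93, 8.08, 8.01, 8.30 and 7.86 at 18 h. Antibiotic tumours had 8.18, 8.45, 8.02, 8.19 and 7.98 at 0 h and 7.83, 7.76, 7.85, 7.99 and 7.86 at 18 h. The groups overlapped at both times, and the gene passed without antibiotic 18 h array 5 (adjusted p = 0.0461) or without water 18 h array 5 (0.0294). The metallothionein genes Mt1 and Mt2, which also respond to zinc, had interactions of -0.04 ± 0.09 and -0.11 ± 0.061, and neither passed.

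**Figure D3:**
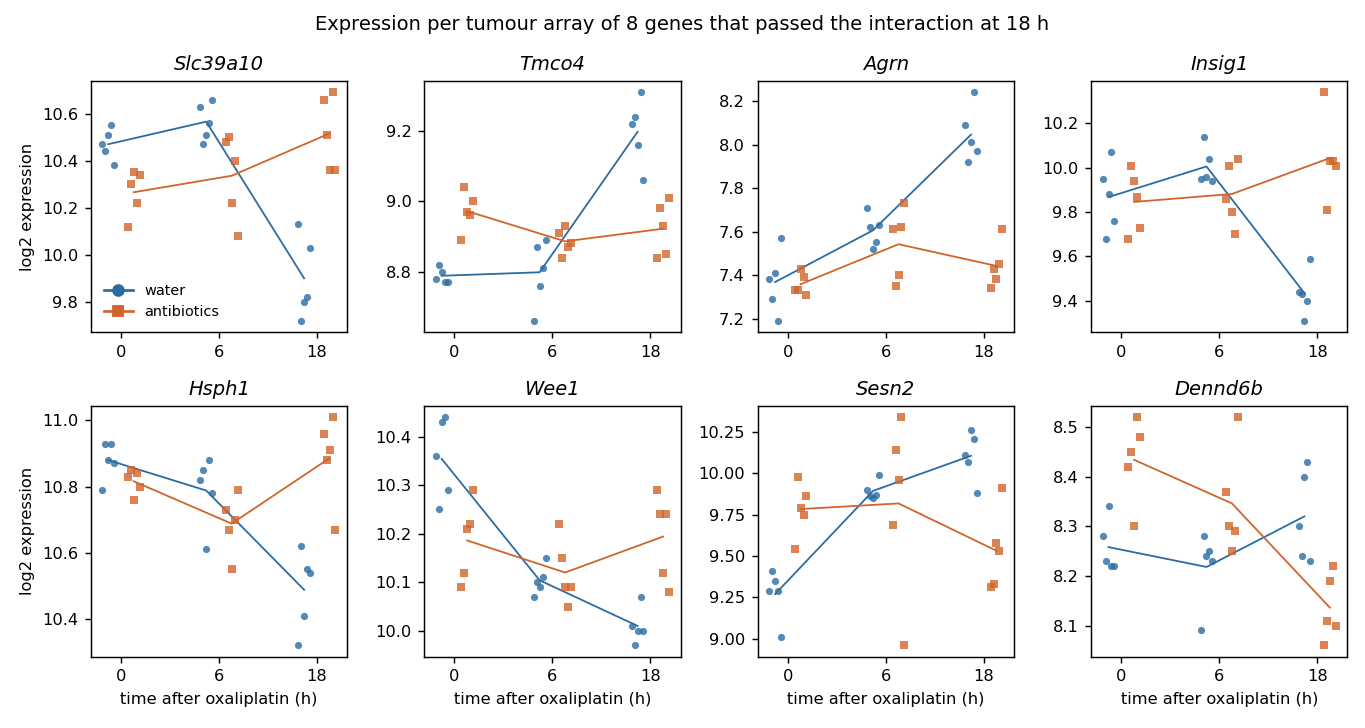
Log2 expression (vertical) of 8 of the 21 genes on each array at 0, 6 and 18 h after oxaliplatin (horizontal), 5 arrays per group, with lines through the group means. For Slc39a10, Insig1, Hsph1 and Wee1 the water arrays are the lower at 18 h, for Tmco4 and Agrn the higher, and for Sesn2 the 2 groups overlap there.

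Insig1 encodes a membrane protein of the endoplasmic reticulum that holds back the sterol-sensing transcription factors SREBP and is itself one of their targets. It was 9.95, 9.68, 9.88, 10.07 and 9.76 in water tumours at 0 h and 9.44, 9.43, 9.31, 9.40 and 9.59 at 18 h. In antibiotic tumours the values were 9.68, 10.01, 9.94, 9.87 and 9.73 at 0 h and 10.34, 9.81, 10.03, 10.03 and 10.01 at 18 h. The groups overlapped at 0 h, and at 18 h all water arrays were below all antibiotic arrays. Insig1 fell by 0.43 ± 0.085 in water mice, and its interaction was 0.64 ± 0.12 (limma, adjusted p = 0.0227). It passed in 14 of 20 fits that left out 1 array, with an adjusted p of up to 0.0668.

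Of 35 genes tested from sterol and fatty acid synthesis, Insig1 was the 1 that passed (0.105% of all genes), and 29 had an interaction above 0 (50.5%). At an unadjusted p under 0.05, 13 were positive (5.24% of all genes) and 0 negative (4.26%). The median over the 35 was 0.14, and between 0.10 and 0.17 when each array was left out in turn. Hmgcs1, which makes the precursor of mevalonate, had 0.40 ± 0.11 (limma, adjusted p = 0.151) and Sqle, squalene epoxidase, 0.18 ± 0.081. The SREBP genes had smaller values, 0.14 ± 0.071 for Srebf2 and 0.03 ± 0.073 for Srebf1. Acss2, an acetyl-CoA synthetase, was the most negative at -0.15 ± 0.11, and none of these 5 passed. At 18 h the list mean, with every gene first centred on its 30 arrays (log2), was -0.07, -0.03, -0.12, -0.10 and -0.06 in water tumours and 0.16, -0.03, 0.07, 0.15 and 0.08 in antibiotic tumours. Antibiotic array 2 was at the level of the highest water array, and the other 4 were above it.

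Hsph1, a large chaperone that recharges Hsp70, showed the same pattern. Its values in water tumours were 10.79, 10.93, 10.88, 10.93 and 10.87 at 0 h and 10.32, 10.62, 10.41, 10.55 and 10.54 at 18 h. In antibiotic tumours they were 10.83, 10.85, 10.76, 10.84 and 10.80 at 0 h and 10.96, 10.88, 10.91, 11.01 and 10.67 at 18 h. All water arrays at 18 h lay below every other array of the 4 groups. The gene fell by 0.39 ± 0.061 in water mice, and the interaction was 0.47 ± 0.087 (limma, adjusted p = 0.0227), passing in 15 of 20 fits without 1 array. Of 16 heat shock genes tested Hsph1 was the 1 that passed (0.105% of all genes). An interaction above 0 was found in 13 (50.5% of all genes), and 9 were positive (5.24%) and 0 negative (4.26%) at an unadjusted p under 0.05, with a median of 0.14. The list mean at 18 h was -0.17, -0.12, -0.03, -0.06 and -0.02 in water tumours. In antibiotic tumours it was -0.01, 0.11, -0.05, 0.08 and -0.05, so the groups overlapped. Hsp90aa1, the inducible Hsp90, had 0.17 ± 0.049, Hspa8, the constitutive Hsp70, 0.11 ± 0.047 and Dnajb1, an Hsp40, 0.18 ± 0.13, none of which passed. The most negative was Cryab, a small chaperone, at -0.11 ± 0.33.

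Heat shock genes are switched on by HSF1, which binds repeats of GAA in alternating orientation. The stretch from 250 bases before to 50 bases after the gene start (RefSeq, GRCm38.p6) was searched for GAANNTTC and TTCNNGAA, which read the same on both strands and can overlap. Of 13 heat shock genes with such a stretch 8 held at least 1 match, against 15.4% of 15614 tested genes. The median interaction was 0.14 in those with a match and 0.17 in those without. Hsph1 (chr5:149636287-149636586, minus strand) and Chordc1 (chr9:18292017-18292316, plus strand), a co-chaperone of Hsp90 chosen after its values were seen, are shown with matches in capitals, because they held 3 and 5 of them.
Hsph1: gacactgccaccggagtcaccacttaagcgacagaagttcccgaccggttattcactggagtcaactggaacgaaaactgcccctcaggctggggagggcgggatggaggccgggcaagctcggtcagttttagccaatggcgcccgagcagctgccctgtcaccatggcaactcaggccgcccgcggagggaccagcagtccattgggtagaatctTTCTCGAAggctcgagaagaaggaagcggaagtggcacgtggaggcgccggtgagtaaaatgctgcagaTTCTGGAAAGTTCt
Chordc1: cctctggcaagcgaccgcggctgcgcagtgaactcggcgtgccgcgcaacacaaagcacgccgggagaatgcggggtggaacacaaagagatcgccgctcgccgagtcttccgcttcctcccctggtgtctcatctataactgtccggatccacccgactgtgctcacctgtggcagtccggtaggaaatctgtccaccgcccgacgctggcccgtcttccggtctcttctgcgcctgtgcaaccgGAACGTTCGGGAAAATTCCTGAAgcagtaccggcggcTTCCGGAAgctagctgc
In Hsph1 the matches fall in a group at the end of the stretch and as a single match before the start, and in Chordc1 most run into each other at the start. The interaction of Chordc1 was 0.29 ± 0.12 (limma, adjusted p = 0.397), lower than that of Hsph1, which held fewer matches. Motifs of other lists were searched in the same way. The sterol regulatory element TCACNCCAC was held by 1 of 27 sterol genes, Hmgcs1 (1.4% of all genes). A pair of p53 half-sites was held by 0 of 21 p53 targets (0.0384%). The search allowed no mismatch and only 6 of 15614 genes held such a pair, so this 0 says nothing about the targets. The amino acid response element TGATGNAA was held by 9 of 26 integrated stress genes (3.62%). The metal response element TGCNCNC was held by 19 of 22 zinc genes (58.7%). A match is a description of the letters and not evidence of binding.

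Wee1 encodes the kinase that blocks Cdk1 and so delays entry into mitosis. It was 10.36, 10.25, 10.43, 10.44 and 10.29 in water tumours at 0 h and 10.01, 9.97, 10.00, 10.07 and 10.00 at 18 h. Antibiotic tumours had 10.09, 10.12, 10.21, 10.22 and 10.29 at 0 h and 10.29, 10.24, 10.12, 10.24 and 10.08 at 18 h. The groups did not overlap at 18 h, though water array 4 and antibiotic array 5 nearly touched. The gene fell by 0.34 ± 0.046 in water mice and changed by 0.01 ± 0.046 in antibiotic mice, with an interaction of 0.35 ± 0.066 (limma, adjusted p = 0.0227). With the 20 arrays alone in the fit the adjusted p was 0.089.

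Among 21 genes for checkpoint and mitotic entry kinases and their partners Wee1 was the 1 that passed (0.105% of all genes). Of these 21, 18 were above 0 (50.5%). Chek1, the kinase that relays DNA damage to the cell cycle, was 10.80, 10.74, 10.74, 10.92 and 10.70 in water tumours at 0 h and 10.35, 10.40, 10.44, 10.46 and 10.39 at 18 h. In antibiotic tumours it was 10.55, 10.87, 10.95, 10.83 and 10.91 at 0 h and 10.81, 10.71, 10.74, 10.84 and 10.59 at 18 h. The 2 groups did not overlap at 18 h, yet the interaction of 0.29 ± 0.10 did not pass (limma, adjusted p = 0.276). Cdc25b, a phosphatase that activates Cdk1, was the most negative with -0.08 ± 0.073.

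No gene of mitosis passed, but all 24 tested had an interaction above 0, and 13 were positive and 0 negative at an unadjusted p under 0.05. Over all genes 0.105% passed and 50.5% were above 0, with 5.24% positive and 4.26% negative at that p. As the list was chosen with earlier results of these data known, these counts describe it and test nothing. The median was 0.16 and stayed between 0.12 and 0.17 without each array in turn. Cenpf, a kinetochore protein, had the largest value, 0.30 ± 0.096 (limma, adjusted p = 0.227), and Ube2c, the ubiquitin-conjugating enzyme of the anaphase-promoting complex, the smallest, 0.03 ± 0.06. At 18 h the list mean was -0.11, -0.02, -0.05, -0.02 and -0.06 in water tumours and 0.08, 0.01, 0.02, 0.07 and 0.06 in antibiotic tumours, without overlap. At 0 h it was 0.06, 0.02, 0.09, 0.14 and 0.06 in water tumours and -0.09, 0.02, 0.03, 0.05 and 0.11 in antibiotic tumours, which overlapped. DNA replication genes had smaller values, with 25 of 30 above 0 and a median of 0.06, and Orc1, a subunit of the origin recognition complex, was highest at 0.29 ± 0.084. Genes of ribosome biogenesis were alike, with 24 of 29 above 0 and a median of 0.06, Nop58 of the snoRNA particle being highest at 0.23 ± 0.083.

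Promoters of mitosis genes often carry CCAAT boxes, bound by NF-Y, and a cell cycle homology region with the letters TTTGAA, through which repressor complexes act outside division. The letters TTTGAA were added to the search after values were seen. Of 20 mitosis genes with a promoter stretch, 13 held CCAAT on either strand (41.7% of all genes) and 14 held TTTGAA (17.3%). The stretch of Cenpf (chr1:189688037-189688336, minus strand) is shown because this gene led the list, with both kinds of match in capitals.
Cenpf: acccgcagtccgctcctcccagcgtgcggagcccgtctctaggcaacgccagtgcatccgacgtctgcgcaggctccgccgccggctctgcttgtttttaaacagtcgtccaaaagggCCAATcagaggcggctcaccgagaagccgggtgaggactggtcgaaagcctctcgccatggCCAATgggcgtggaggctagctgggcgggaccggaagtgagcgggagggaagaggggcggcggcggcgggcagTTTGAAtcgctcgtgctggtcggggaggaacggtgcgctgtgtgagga
The pair of CCAAT boxes stands before the start and TTTGAA directly at it. The median interaction was 0.18 in the genes that held TTTGAA and 0.09 in those that did not, a difference that was not tested.

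The other 5 genes with a positive interaction belong to none of the lists. Trmt10a, a methyltransferase of transfer RNA, ranged from 9.92 to 10.19 in water tumours at 0 h and from 9.26 to 9.54 at 18 h, against 9.83 to 10.14 and 9.82 to 10.21 in antibiotic tumours. It fell by 0.61 ± 0.077 in water mice, and the interaction was 0.57 ± 0.11 (limma, adjusted p = 0.0227). Nmbr, the receptor for the peptide neuromedin B, was 6.12 to 6.27 in water and 6.49 to 6.86 in antibiotic tumours at 18 h, with an interaction of 0.61 ± 0.11. Mfsd2a, a transporter of lysophospholipids, was 8.80 to 8.96 and 9.06 to 9.35 there (interaction 0.42 ± 0.074). Arhgap19, a GTPase-activating protein, was 9.36 to 9.49 and 9.62 to 9.87 (0.40 ± 0.076). None of these 4 overlapped at 18 h. The fifth, the pheromone receptor gene Vmn1r28, stayed between 3.35 and 3.65 on all 20 arrays, near the lowest values of the table (2.66), overlapped at 18 h and had 0.30 ± 0.061.

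Among the negative genes the largest interaction was that of Sesn2, which encodes a sestrin that restrains the growth regulator mTORC1. Its values in water tumours were 9.29, 9.41, 9.35, 9.29 and 9.01 at 0 h and 10.11, 10.07, 10.26, 10.21 and 9.88 at 18 h. Antibiotic tumours had 9.54, 9.98, 9.79, 9.75 and 9.86 at 0 h and 9.31, 9.33, 9.58, 9.53 and 9.91 at 18 h. At 0 h all antibiotic arrays were the higher, and at 18 h 4 of 5 were below all water arrays while array 5 was inside the water range. Sesn2 rose by 0.84 ± 0.16 in water mice (limma, adjusted p = 0.00046), and the change in antibiotic mice was -0.25 ± 0.16 (adjusted p = 0.633). The interaction was -1.09 ± 0.22 (adjusted p = 0.0421), and it passed in 3 of 20 fits without 1 array, those without antibiotic 0 h array 1, water 18 h array 5 or antibiotic 18 h array 5. It did not pass with the median of each array subtracted or in an ordinary linear model.

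Sesn2 was the 1 gene of 29 p53 targets tested that passed (0.105% of all genes), and it is also a member of the integrated stress response list. At 0 h the gap between antibiotic and water tumours was 0.51 ± 0.16 for Sesn2, against a median of -0.08 over the p53 targets. Of the 29, 25 had an interaction below 0 and 4 above 0 (50.5% of all genes above 0). At an unadjusted p under 0.05, 0 were positive (5.24% of all genes) and 11 negative (4.26%). The median was -0.22, and between -0.28 and -0.19 without each array in turn. Over the same genes the median change from 0 to 18 h was 0.42 in water mice and 0.13 in antibiotic mice. Fas, the death receptor, was 7.49, 7.14, 7.51, 7.39 and 7.50 in water tumours at 0 h and 8.33, 8.63, 8.44, 8.86 and 8.53 at 18 h. In antibiotic tumours it was 7.58, 7.27, 7.25, 7.52 and 7.15 at 0 h and 7.44, 8.03, 7.89, 7.64 and 8.53 at 18 h. Antibiotic array 5 reached the water values, and the interaction was -0.60 ± 0.21 (limma, adjusted p = 0.276).

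Mdm2, the ubiquitin ligase that degrades p53, gave the same picture. At 18 h it was 11.18, 11.23, 11.34, 11.28 and 11.30 in water and 10.79, 10.90, 10.91, 10.84 and 11.27 in antibiotic tumours, array 5 again lying among the water values. Mdm2 rose by 0.65 ± 0.076 in water and 0.38 ± 0.076 in antibiotic mice, and the interaction was -0.28 ± 0.11 (limma, adjusted p = 0.370). Trp53inp1, which promotes p53-dependent death, had -0.62 ± 0.26, Btg2, an antiproliferative gene, -0.22 ± 0.16, Ddit4, an mTORC1 inhibitor, -0.17 ± 0.19, and Sesn1 -0.05 ± 0.11. None of these passed. Tigar, which lowers glycolytic flux, was the most positive at 0.08 ± 0.072. Cdkn1a and Bax were not analysed here.

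The p53 list mean of each array shows the same split. At 18 h it was 0.25, 0.30, 0.34, 0.37 and 0.30 in water tumours and -0.16, -0.02, 0.03, -0.06 and 0.26 in antibiotic tumours. At 0 h it lay between -0.26 and -0.12 in water and between -0.28 and -0.19 in antibiotic tumours. Already at 6 h it was 0.25, 0.19, 0.13, 0.17 and 0.22 in water tumours and -0.18, 0.04, -0.22, 0.07 and -0.17 in antibiotic tumours, without overlap. Antibiotic 18 h array 5 was thus the 1 array of its group at the water level. Without it 119 of 19938 genes passed, among them 4 of the 29 p53 targets. These were Sesn2, the costimulatory ligand Cd80 (-0.91 ± 0.20), Phlda3, an inhibitor of Akt (-0.62 ± 0.14), and Fas (-0.76 ± 0.18). The array was singled out by its p53 level, so leaving it out had to lower the p53 interactions on average. Their median went from -0.22 to -0.28, and the 4 calls therefore describe this choice and test nothing. The cause of the position of antibiotic 18 h array 5 was not tested.

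**Figure D4:**
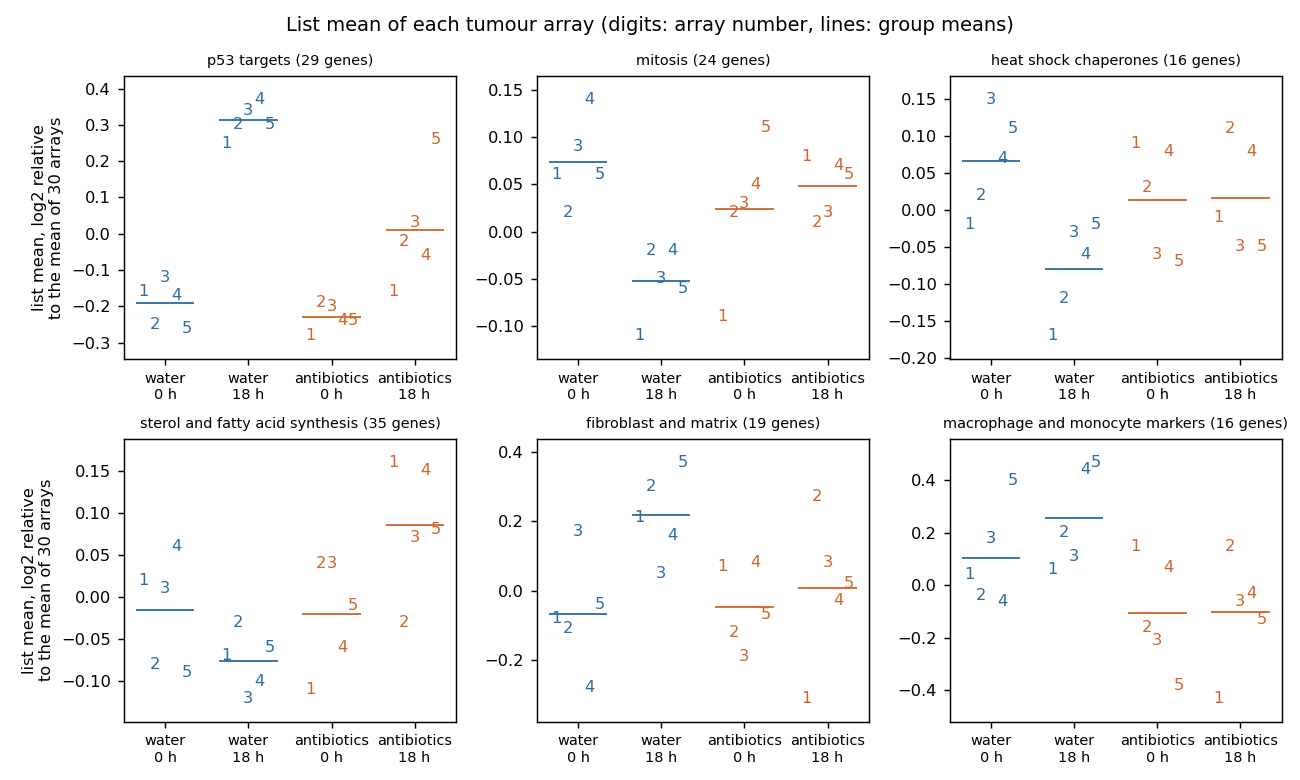
Mean of 6 gene lists on each array (vertical, log2, every gene centred on its 30 arrays) in the 4 groups, each digit being the array of that number and each line a group mean. Antibiotic 18 h array 5 lies at 0.26 for p53 targets, among the water arrays, and antibiotic 18 h array 1 lies lowest of its group for the fibroblast and macrophage lists.

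Agrn encodes agrin, a proteoglycan of basement membranes, and Pomt2 an enzyme that starts the sugar chains through which dystroglycan binds agrin. Agrn was 7.38, 7.29, 7.41, 7.19 and 7.57 in water tumours at 0 h and 8.09, 7.92, 8.01, 8.24 and 7.97 at 18 h. In antibiotic tumours it was 7.33, 7.33, 7.43, 7.39 and 7.31 at 0 h and 7.34, 7.43, 7.38, 7.45 and 7.61 at 18 h. The groups overlapped at 0 h, and at 18 h every water array was above every antibiotic array. Agrn rose by 0.68 ± 0.072 in water mice (limma, adjusted p = 5.51e-07), and the change in antibiotic mice was 0.08 ± 0.072. The interaction was -0.60 ± 0.10 (adjusted p = 0.0158), and it was lost without water 0 h array 4 and without antibiotic 18 h array 1 (adjusted p up to 0.0545).

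Pomt2 was between 8.39 and 8.47 at 0 h in water mice and between 8.75 and 9.05 at 18 h, against 8.46 to 8.56 and 8.36 to 8.73 in antibiotic mice. Its interaction was -0.47 ± 0.089 (limma, adjusted p = 0.0227). Baiap2, an adaptor protein of the actin cytoskeleton, was 8.61 to 8.84 in water and 8.27 to 8.56 in antibiotic tumours at 18 h, with an interaction of -0.42 ± 0.078. In both genes the groups did not overlap at 18 h.

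Among markers of supporting cells none passed (0.105% of all genes), and most values were negative. Of 19 fibroblast and matrix genes 18 were below 0 and 1 above 0 (50.5% of all genes above 0), and 5 were negative at an unadjusted p under 0.05 (4.26%), with a median of -0.22. The gelatinase gene Mmp2 had the most negative value, -0.59 ± 0.21 (limma, adjusted p = 0.312), and the stromelysin gene Mmp3 the highest, 0.01 ± 0.21. Of 16 endothelial genes 14 were below 0 and 2 above 0, and 6 were negative at an unadjusted p under 0.05, against the same shares of all genes, with a median of -0.17, led by Eng, a co-receptor for TGF-beta, at -0.34 ± 0.15. Both medians shrank most without antibiotic 18 h array 1, to -0.15 and -0.09. That array had the lowest fibroblast list mean of its group, -0.31 against -0.03 to 0.27 on the other 4, and the lowest macrophage list mean, -0.43 against -0.13 to 0.15. Its keratinocyte mean was the highest of the group, 0.61 against -0.40 to -0.08. The part of these differences in the interaction of Agrn was not tested; without antibiotic 18 h array 1 its value was -0.57.

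Tmco4, a transmembrane protein of little known function, was the most stable negative gene. It was 8.78, 8.82, 8.80, 8.77 and 8.77 in water tumours at 0 h and 9.22, 9.24, 9.16, 9.31 and 9.06 at 18 h. Antibiotic tumours had 8.89, 9.04, 8.97, 8.96 and 9.00 at 0 h and 8.84, 8.98, 8.93, 8.85 and 9.01 at 18 h. The antibiotic arrays were all above the water arrays at 0 h and all below them at 18 h. Tmco4 rose by 0.41 ± 0.046 in water mice (limma, adjusted p = 1.15e-06), changed by -0.05 ± 0.046 in antibiotic mice, and had an interaction of -0.46 ± 0.066 (adjusted p = 0.00143).

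The remaining negative genes have varied roles. Mrnip, a partner of the MRN complex that senses broken DNA, was 8.47 to 8.72 in water and 8.22 to 8.36 in antibiotic tumours at 18 h, with an interaction of -0.39 ± 0.073 (limma, adjusted p = 0.0227). Mks1, of the transition zone of cilia, overlapped at 18 h and had -0.34 ± 0.068. Uqcc3, an assembly factor of respiratory complex III, had -0.32 ± 0.067, and Afg1l, an ATPase of mitochondria, -0.35 ± 0.073. Arl11, a small GTPase, rose by 0.64 ± 0.084 in water mice and had -0.58 ± 0.12, and R3hcc1, whose function is little known, had -0.41 ± 0.08. Among these 6, Mks1, Uqcc3, Afg1l and Arl11 passed in 5, 5, 2 and 3 of 20 fits without 1 array.

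Dennd6b, of a family of exchange factors for Rab GTPases, was the 1 gene of the 21 whose change in antibiotic mice passed its own test. It was 8.28, 8.23, 8.34, 8.22 and 8.22 in water tumours at 0 h and 8.30, 8.24, 8.40, 8.43 and 8.23 at 18 h. In antibiotic tumours it was 8.42, 8.45, 8.30, 8.52 and 8.48 at 0 h and 8.06, 8.11, 8.19, 8.22 and 8.10 at 18 h. Antibiotic arrays at 18 h lay below all arrays at 0 h of their kind, whereas the water arrays of both times overlapped. It fell by 0.29 ± 0.053 in antibiotic mice (limma, adjusted p = 0.00297), with an interaction of -0.36 ± 0.074 (adjusted p = 0.0471) that passed in 4 of 20 fits without 1 array.

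The threshold does not separate distinct kinds of gene. At an unadjusted p under 0.05 there were 1893 genes (9.49%), with 997 given by chance. The last to pass, Dennd6b, had an adjusted p of 0.0471 and the next, Plxna1, a semaphorin receptor, 0.051 (interaction -0.39 ± 0.083). At an adjusted p under 0.1 there were 79 genes. Among the next 10 negative genes was Mdm4, the partner of Mdm2 that restrains p53, at -0.63 ± 0.13. It was 11.09, 11.08, 11.13, 11.24 and 11.13 in water and 10.31, 10.40, 10.62, 10.38 and 11.09 in antibiotic tumours at 18 h, where array 5 again had the water level. The others were the SNARE gene Use1, Man2c1, Snx20, Gstz1, the complex III factor Bcs1l, Papln and the small nucleolar RNA genes Snora73a and Snora73b, near-identical copies whose probes may not tell them apart. They lay between -0.57 and -0.25. The next 10 positive genes lay between 0.20 and 0.50 and included Ptges3, the Hsp90 co-chaperone p23 (0.30 ± 0.064), the desaturase gene Scd4 (0.50 ± 0.12), the copper chaperone of cytochrome oxidase Cox11 (0.25 ± 0.057) and the histone gene H3c4 (0.44 ± 0.10), the last of a family of near-identical genes. Asxl2, Zfat, Septin14, Tent4a, Nudcd1 and 1110002L01Rik made up the rest.

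In the integrated stress response, immune and hypoxia lists, Sesn2 was the 1 member that passed. Over all genes 0.105% passed, 50.5% had an interaction above 0 and 9.49% had an unadjusted p under 0.05. The integrated stress response, driven by the factor Atf4, had 13 of 28 above 0 and a median of -0.03, with 0.03 ± 0.062 for Atf4 itself, although Sesn2 belongs to this list as well. This list was already higher with antibiotics at 0 h, with a median gap of 0.22. Its list mean there was 0.22 to 0.29 in antibiotic and -0.14 to 0.10 in water tumours. The gap passed upward in 6 of 28 members at 0 h (limma, 0.0903% of all genes). At 18 h it passed upward in 14 and downward in 1 (7.85% of all genes either way). Chac1, a glutathione-degrading enzyme, fell by 1.20 in water and by 1.29 in antibiotic mice and had an interaction of -0.09 ± 0.24. Of 28 inflammatory cytokine and chemokine genes 14 were above 0, with a median of 0.0013, and Tnf, Il1b and Il6 did not pass. Immediate early genes had 10 of 22 above 0 and a median of -0.01, type I interferon response genes 4 of 22 and -0.09, and genes of interferon gamma response and MHC class I 2 of 17 and -0.17. Macrophage and monocyte markers had 3 of 16 above 0 and a median of -0.13. At an unadjusted p under 0.05 these last 3 lists held 1, 3 and 1 negative genes (4.26% of all genes) and 0 positive ones (5.24%). The type I interferon median ranged from -0.21 to 0.06 without each array, and was above 0 without antibiotic 18 h array 1 or without water 18 h array 4 or 5. The interferon gamma median was -0.29 without antibiotic 18 h array 2 and -0.05 without water 18 h array 4. Genes of reactive oxygen production had 2 of 12 above 0 and a median of -0.12, which was -0.06 without antibiotic 18 h array 1. Genes that sense bacterial products had 6 of 21 above 0 and a median of -0.05, which was -0.01 without antibiotic 18 h array 1 and -0.11 without water 0 h array 5. Hypoxia and glycolysis genes had 22 of 23 above 0 and a median of 0.13, but 0 of 23 had an unadjusted p under 0.05 in limma.

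**Figure D5:**
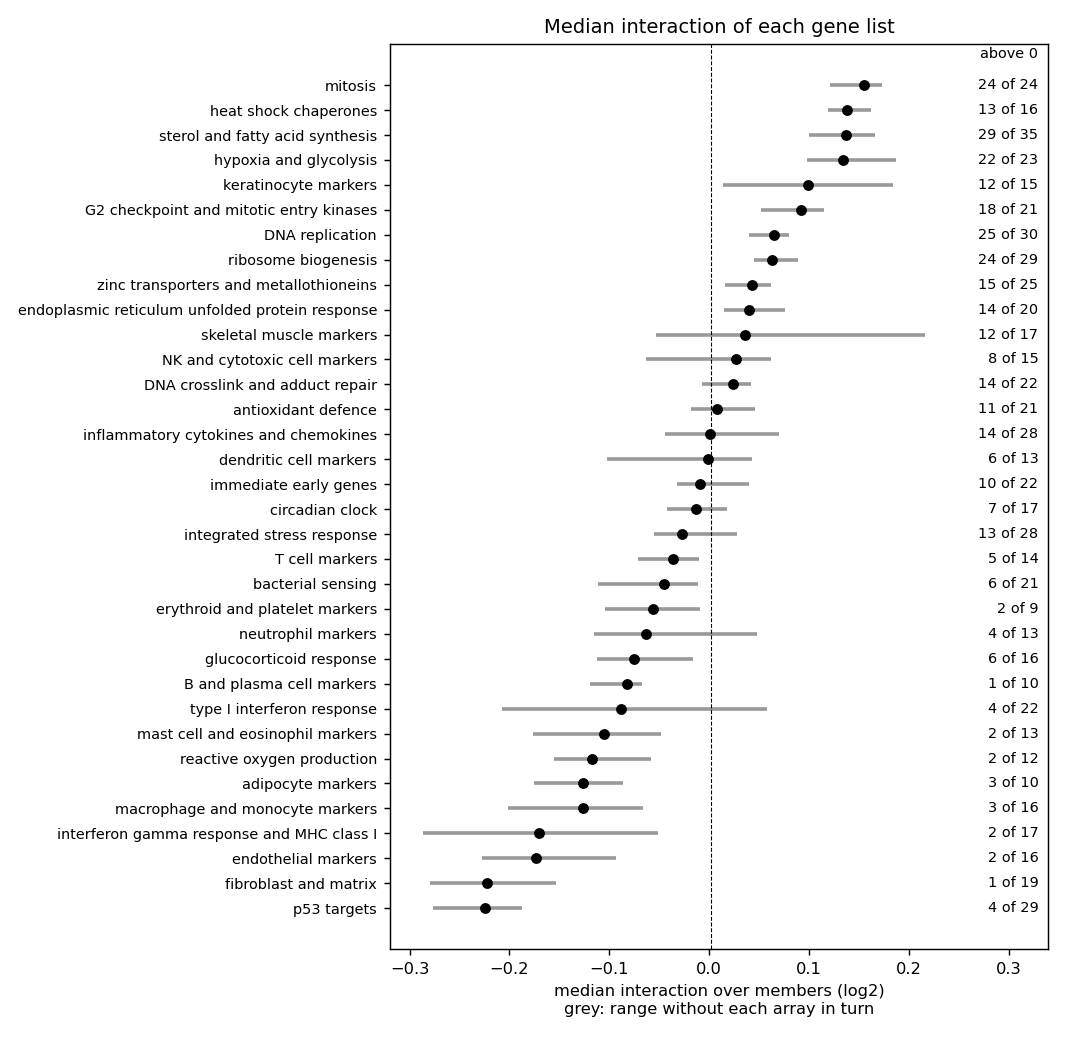
Median interaction at 18 h (horizontal, log2) of the members of each of 34 gene lists, with grey bars for the range when each array was left out in turn and, at the right, the number of members above 0. Mitosis, heat shock, sterol and glycolysis lists lie at 0.13 to 0.16, and p53 and fibroblast lists at -0.22, against 0.0015 for all genes (dashed line).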

How the data were processed

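Each of the 30 tumour samples was measured on 1 Affymetrix mouse gene array. The deposited values are log2 expression per probe row, as the values show. Partek 6.6 is named in the submitters' processing notes, with no role; background correction, summarisation, normalization and build are not given in the sources used here. Of 28853 rows, 21775 had 1 gene symbol in the platform annotation, 1578 had several and 5500 had none here; only the first were used, with the row of highest mean where a gene had several.

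From these log2 values limma 3.58.1 in R 4.3.3 (lmFit, eBayes) fitted 6 group means to the 30 arrays, with two-sided tests and Benjamini-Hochberg adjustment over 19938 genes at 0.05. Errors are SE from this fit, with 5 arrays per group. The number of arrays limits the precision. The fit was tested on simulated data with 200 genes changed: 73% of changes of 0.5 and 94% of changes of 1 were found, and 4.57% of calls were false. The simulated noise was normal, independent between genes and equal in all groups, so no array was shifted as a whole. In the real data leaving out 1 array gave 2 to 119 genes, and 21 passed. The simulated rates therefore check the code and may not hold for these arrays.

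Named genes were all that passed, the 10 nearest misses in each direction, the passed and most extreme members of each list, and a fixed set; Chordc1, Cd80 and Phlda3 fall outside this and were chosen after their values were seen. The members and gene lists were chosen with earlier results of these data known. Promoter sequences are RefSeq's, for GRCm38.p6; 19 of the 21 genes had one. Alternatives tried were other normalizations, filters, rows per gene, spread models, a minimum fold and each array left out.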

Additional observations from a re-analysis of the deposited data

Results flagged for a closer look

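The change from 0 to 18 h differed between antibiotic and water mice, by the test of the difference itself (limma, adjusted p under 0.05), in 21 genes. The log2 difference was 0.82 for Slc39a10, 0.64 for Insig1, 0.61 for Nmbr, 0.57 for Trmt10a, 0.47 for Hsph1, 0.42 for Mfsd2a, 0.40 for Arhgap19, 0.35 for Wee1 and 0.30 for Vmn1r28. It was -1.09 for Sesn2, -0.60 for Agrn, -0.58 for Arl11, -0.47 for Pomt2, -0.46 for Tmco4, -0.42 for Baiap2, -0.41 for R3hcc1, -0.39 for Mrnip, -0.36 for Dennd6b, -0.35 for Afg1l, -0.34 for Mks1 and -0.32 for Uqcc3.

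In 11 of 328 groups of 5 arrays examined, 1 array lay far from the other 4. Chance gives about 1 in 20, which is more than was found, so the arrays are listed as values only. Antibiotic 18 h array 5 had log2 values of 11.27 for Mdm2 (nearest other array 10.91), 9.93 for Plxna1 (9.82) and 10.22 for Septin14 (10.40). Antibiotic 18 h array 1 was low for Il1b, at 9.22 (10.36), and Ddit4, at 9.37 (9.80). Antibiotic 0 h array 1 was low for Chek1 at 10.55, Mdm2 at 10.45, Cox11 at 9.88 and Cd4 at 8.19. In the same group array 4 had 9.35 for Mfsd2a and array 3 had 8.46 for Pomt2.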

How the results depend on the processing

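Of 629 values of the 21 genes under other settings, 0 changed sign, 418 stayed past the threshold and 211 did not. The number of genes with an interaction at 18 h was 21; it was 12 with the 20 arrays alone (11 shared), 12 with array medians subtracted (12 shared), 122 with quantile normalization, 54 with a mean of 6 or more, 121 with array weights, 67 with trend and robust, 34 with an ordinary linear model and 5 with a minimum of 1.5-fold. With the 20 arrays and weights, chosen after seeing the data, it was 40. The cause was not tested. The change in water mice (2816 genes) gave 124 with 1.5-fold. That in antibiotic mice (244) gave 368 with quantile normalization, 569 with weights, 383 with 20 arrays and weights and 18 with 1.5-fold. The gap at 0 h (18) gave 36 with 20 arrays, 32 with quantile normalization, 28 with medians subtracted, 126 with weights, 83 with 20 arrays and weights and 3 with 1.5-fold. The gap at 18 h (1566) gave 35 with 1.5-fold, and that at 6 h (752) gave 468 with medians subtracted, 1266 with weights and 45 with 1.5-fold. The interaction at 6 h (0) gave 1 with quantile normalization and 1 with weights. Leaving out 1 array gave 2 to 119 genes for the interaction at 18 h, 2089 to 2960 in water mice, 94 to 346 in antibiotic mice, 7 to 32 for the gap at 0 h, 771 to 1686 at 18 h, 677 to 838 at 6 h and 0 to 2 for the interaction at 6 h. No paired analysis was possible because the sample numbers run on from group to group and the labels link no samples across groups. With 5 arrays per group the median SE of an interaction was 0.101, which limits what small differences can be seen.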
